A study of Drosophila melanogaster with 12 samples.

Results

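The myoblast and adult muscle precursor genes described here are twi, Him, Mef2, lmd, htl, stumps, zfh1, kirre, sns and blow. These 10 symbols were looked up by name among the 15240 genes of the RNA table, and all 10 were found and passed the filter on low values, as did 7775 genes in all. Wing tissue of female Drosophila melanogaster kept at 25 degrees was profiled by RNA sequencing in 8 libraries, 2 for each of 4 groups. Wild-type animals (genotype +/+ on each chromosome) were taken as wandering larvae 6 h before puparium formation, written -6 h and called larval, and as prepupae 6 h after it, written +6 h and called prepupal. EcR-RNAi animals were taken at the same stages. They were yw/yw and carried the driver Vg-GAL4 together with UAS-Flp and the flip-out cassette Tub>>CD2>>GAL4, and had UAS-GFP over the hairpin transgene UAS-EcR-RNAi[104]. EcR is the gene of the ecdysone receptor, a nuclear receptor bound by the moulting steroid. Wild type and EcR-RNAi differ in background and in every transgene as well as in EcR, so these effects cannot be told apart, and bulk reads do not show which cells carried the hairpin. The design text names no reason for looking at muscle precursors, and the 2-by-2 layout lets the change with stage, the difference between genotypes and the dependence of one on the other be measured for each gene.

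In the fly wing disc, muscle precursors called myoblasts lie on the epithelium of the future thorax. They are set aside from the embryonic mesoderm, kept undifferentiated by twi, zfh1 and Notch signalling, and held to the tissue by fibroblast growth factor (FGF) signalling through the receptor Heartless. During metamorphosis they migrate, differentiate under Mef2 and fuse into the flight muscles, using adhesion proteins of the immunoglobulin superfamily and a burst of actin assembly at the contact site. In bulk tissue, fewer cells of a type and less RNA per cell cannot be told apart, and this holds for each value below.

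Recovered depth was between 6444939 and 10016236 reads per library. The RNAi target EcR had 1924 to 2194 normalized counts in larval and 5764 to 6852 in prepupal wild type, against 1307 to 1634 and 2081 to 2201 in EcR-RNAi. The wing pouch gene nub was at 1842 to 2999 normalized counts and twi at 525 to 1325 over the 8 libraries, so epithelial and myoblast transcripts were present in all of them. A normalized count is the number of reads of a gene divided by a factor for the depth of its library. It is not divided by gene length, so levels are compared between libraries and not between genes. A gene was called at an adjusted p under 0.05 in a limma fit over all 7775 genes, and log2 fold changes, on the log2(normalized count + 1) scale, are given with their standard error.

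**Figure D1:**
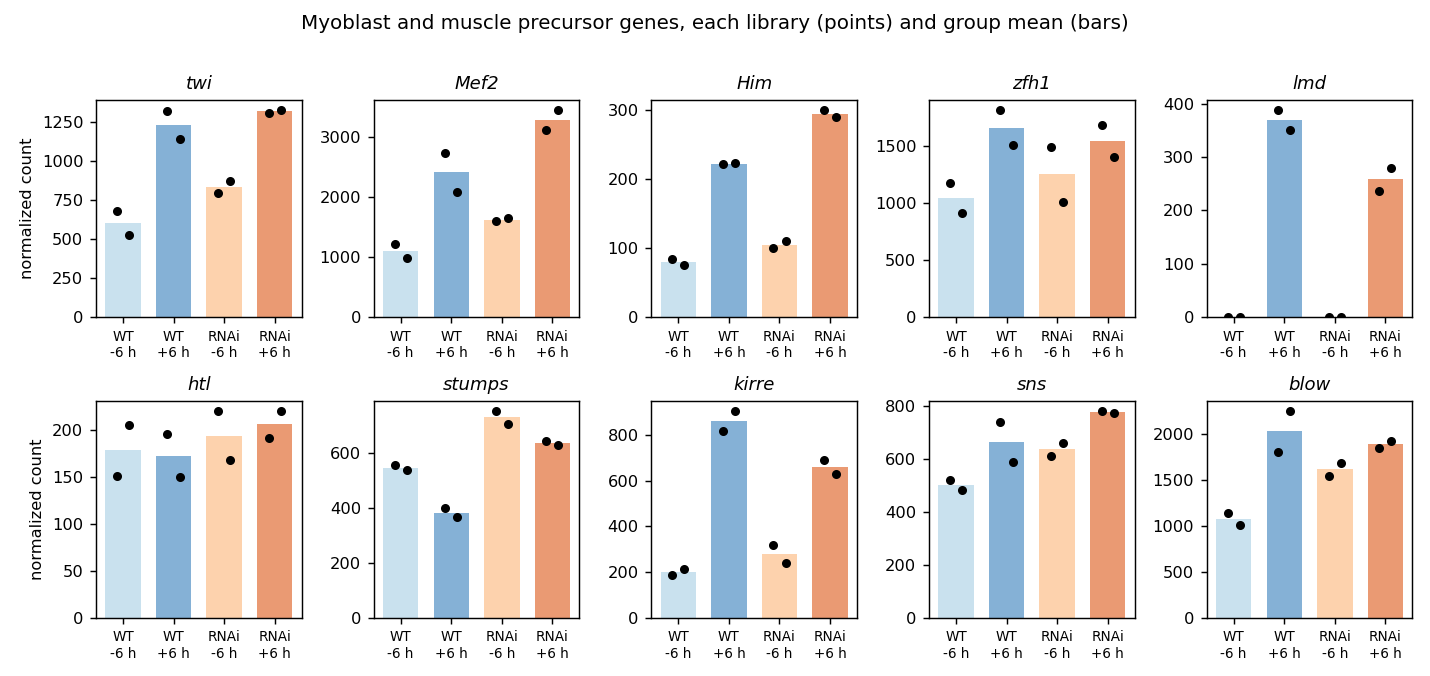
Normalized counts (vertical axes, linear, each from 0) of the 10 genes in wild type (WT) and EcR-RNAi (RNAi) at -6 h and +6 h. Points are the 2 libraries of a group and bars are their mean, and lmd went from 1 read per library at -6 h to 236 to 388 normalized counts at +6 h.

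In wild-type wings, 8 of the 10 genes rose between -6 h and +6 h and 1 fell. Over all genes tested, 29.1% rose and 26.7% fell. The median log2 fold change of the 10 genes was 0.97, against -0.01 over all genes. The 10 genes were chosen with earlier results of these data known, so these shares and medians are a description only. In EcR-RNAi wings 5 of the 10 rose and 0 fell, where 12.1% of all genes rose and 3.88% fell, and the medians were 0.49 and 0.00. The 5 that rose in EcR-RNAi were twi, Him, Mef2, lmd and kirre, and these also rose in wild type.

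The transcription factor genes come first. twi encodes the basic helix-loop-helix factor Twist, which specifies mesoderm and marks the undifferentiated adult muscle precursors. Its normalized counts were 682 and 525 in larval and 1318 and 1141 in prepupal wild type, and for EcR-RNAi they were 796 and 873 and then 1310 and 1325. Both +6 h libraries lay above both -6 h libraries in each genotype, and at +6 h the genotypes overlapped. The log2 fold change with stage was 1.03 ± 0.13 in wild type (limma adjusted p = 5.7e-05) and 0.66 ± 0.13 in EcR-RNAi (limma adjusted p = 0.00642). The EcR-RNAi call ended without replicate 1 (adjusted p = 0.0566, limma) or replicate 2 (adjusted p = 0.0627, limma) of EcR-RNAi at +6 h.

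Mef2 encodes the MADS-box factor that activates muscle structural genes during differentiation. It was at 1209 and 981 normalized counts in larval wild type, at 2731 and 2081 in the prepupae, at 1592 and 1649 in larval EcR-RNAi and at 3107 and 3438 in its prepupae. No library of one group overlapped another group, and the order from low to high was wild type at -6 h, EcR-RNAi at -6 h, wild type at +6 h and EcR-RNAi at +6 h. The stage change was 1.13 ± 0.15 in wild type (limma adjusted p = 5.8e-05) and 1.01 ± 0.15 in EcR-RNAi (limma adjusted p = 7.5e-04).

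Him encodes a nuclear protein of muscle progenitors that inhibits Mef2. Its levels were 84.2 and 75.6 normalized counts in larval wild type, 221 and 223 in the prepupae, 99.4 and 111 in larval EcR-RNAi, and 299 and 289 in its prepupae. The groups stood in the same order as for Mef2, again without overlap. The increase was 1.47 ± 0.14 in wild type (limma adjusted p = 5.6e-06) and 1.48 ± 0.14 in EcR-RNAi (limma adjusted p = 3.6e-05). Its interaction, the EcR-RNAi stage change minus the wild-type one, was 0.01 ± 0.20 (95% interval -0.42 to 0.45, limma adjusted p = 0.971). So the activator and its inhibitor rose together with stage in both genotypes.

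zfh1 encodes a zinc finger and homeodomain repressor that keeps muscle precursors undifferentiated and is also made in blood cells. Larval wild type held 1169 and 915 normalized counts of it and the prepupae 1807 and 1501. For EcR-RNAi the pairs were 1485 and 1010, then 1679 and 1399. Replicates of zfh1 were further apart than those of Him, and each neighbouring pair of groups in the order of means overlapped. The wild-type increase of 0.67 ± 0.21 (limma adjusted p = 0.0240) was lost without replicate 2 at -6 h (adjusted p = 0.144, limma) and without replicate 1 at +6 h (adjusted p = 0.136, limma), both of wild type. It was also lost with upper-quartile scaling (0.51, limma adjusted p = 0.0710) and with quantile normalization (0.23, limma adjusted p = 0.329). In EcR-RNAi the difference was 0.32 ± 0.21 (limma adjusted p = 0.354). Without replicate 1 of EcR-RNAi at -6 h it was 0.60 and called (limma adjusted p = 0.0372).

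lmd encodes Lame duck, a zinc finger factor of the Gli family that specifies the fusion-competent myoblasts in the fly embryo. It went from near silence to a clear signal: each of the 4 libraries at -6 h held 1 read. At +6 h lmd had 260 and 334 reads in wild type, or 388 and 350 normalized counts, and 192 and 284 reads in EcR-RNAi, or 236 and 280 normalized counts. The ratio of depth-scaled reads between stages was 474 in wild type (exact Clopper-Pearson 95% counting interval 131 to 3927) and 293 in EcR-RNAi (80.6 to 2425). Both changes were called (limma adjusted p = 5.5e-09 and 3.2e-07), and they were called under all 19 alternatives tried. At +6 h both EcR-RNAi libraries lay below both wild-type libraries. That difference of -0.52 ± 0.31 missed the threshold (limma adjusted p = 0.207), but it was called with edgeR (adjusted p = 0.0157), with limma without trend and robust settings (adjusted p = 0.0309) and with limma on the 4 libraries of the comparison alone (adjusted p = 0.00725).

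The FGF genes did not follow this pattern. htl encodes the FGF receptor Heartless. Its normalized counts were 151 and 206 in wild type at -6 h, 195 and 150 at +6 h, 220 and 168 in larval EcR-RNAi and 192 and 220 in its prepupae, so all groups overlapped. The stage change was -0.04 ± 0.20 in wild type (95% interval -0.48 to 0.40, limma adjusted p = 0.877) and 0.09 ± 0.20 in EcR-RNAi (95% interval -0.35 to 0.54, limma adjusted p = 0.799). Neither interval reaches 1 on the log2 scale in either direction.

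stumps encodes the intracellular adaptor that couples Heartless to the Ras pathway, and it was the 1 member that fell in wild type. It went from 555 and 537 normalized counts at -6 h to 398 and 367 at +6 h there. For EcR-RNAi the pairs were 753 and 707, then 642 and 630, so that both EcR-RNAi groups stood above both wild-type groups. The decrease with stage was -0.51 ± 0.10 in wild type (limma adjusted p = 0.00119), and the difference in EcR-RNAi was -0.20 ± 0.10 (limma adjusted p = 0.229). With quantile normalization the latter was -0.34 and called (limma adjusted p = 0.0323). The interaction was 0.32 ± 0.14 and did not pass (limma adjusted p = 0.130).

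The fusion genes rose in wild type by different amounts. kirre encodes Kin of irre (Dumbfounded), an immunoglobulin superfamily attractant on founder cells. Larval wild type held 185 and 211 normalized counts of it and the prepupae 817 and 905, and larval EcR-RNAi held 317 and 240 and its prepupae 690 and 628. No groups overlapped, and EcR-RNAi lay above wild type at -6 h and below it at +6 h. The increase was 2.12 ± 0.14 in wild type (limma adjusted p = 3.8e-07) and 1.25 ± 0.14 in EcR-RNAi (limma adjusted p = 1.4e-04).

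In the reference annotation the span of kirre holds 23 other genes, among them rst, a fusion gene of the same family, and w, the eye colour gene that often marks fly transgenes. w had 13.6 to 19.2 normalized counts in the 4 wild-type libraries and 2943 to 3907 in the EcR-RNAi libraries. Whether reads of genes in this span were counted for kirre was not tested.

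sns encodes Sticks and stones, the partner of Kirre on fusion-competent cells. Its normalized counts were 521 and 482 in larval wild type, 741 and 588 at +6 h, 610 and 661 in larval EcR-RNAi, and 781 and 772 in its prepupae. Wild type at +6 h overlapped EcR-RNAi at -6 h, and the other groups did not overlap. The wild-type increase was 0.40 ± 0.12 (limma adjusted p = 0.0169). It was lost with upper-quartile scaling (0.23, limma adjusted p = 0.122), with quantile normalization (0.14, limma adjusted p = 0.343), without replicate 2 of wild type at -6 h (adjusted p = 0.0957, limma) and without replicate 1 of wild type at +6 h (0.23, limma adjusted p = 0.155). In EcR-RNAi the difference was 0.29 ± 0.12 (limma adjusted p = 0.143).

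blow encodes Blown fuse, a protein that promotes actin turnover at the site of fusion. Larval wild type held 1138 and 1007 normalized counts of it and the prepupae 1804 and 2250, and for EcR-RNAi the pairs were 1546 and 1680, then 1850 and 1927. Both wild-type libraries at -6 h stood below every other library, and at +6 h the genotypes overlapped. The increase was 0.91 ± 0.13 in wild type (limma adjusted p = 9.1e-05), against a difference of 0.23 ± 0.13 in EcR-RNAi (limma adjusted p = 0.267). The annotation places Vps13 across blow. Vps13 moved the other way in wild type, from 1303 and 1719 to 540 and 496 normalized counts, and its part in the counts of blow was not tested.

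**Figure D2:**
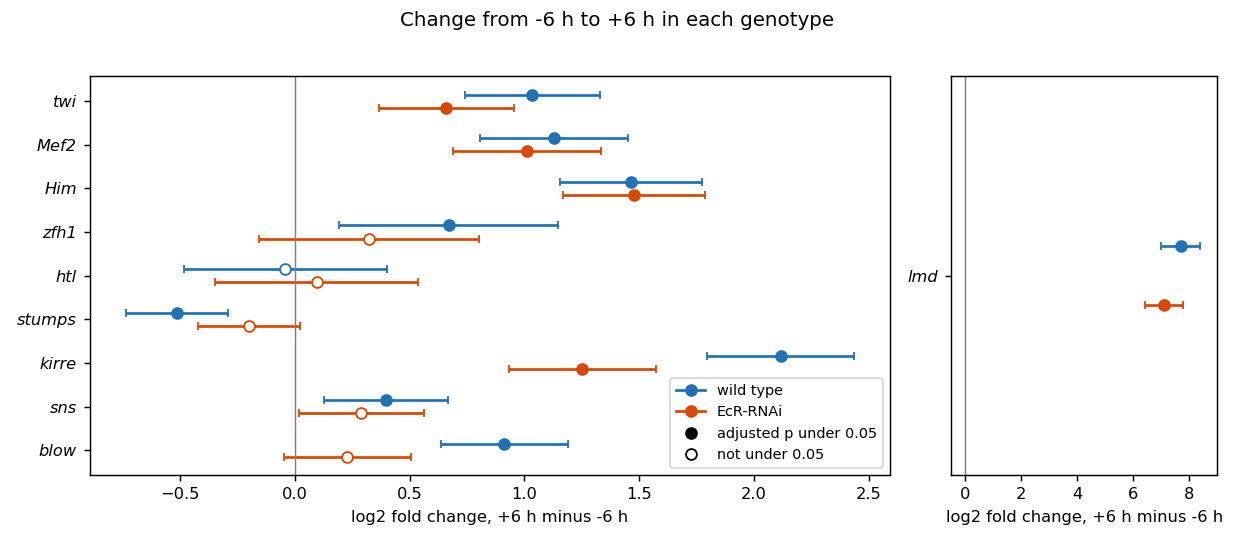
Log2 fold change from -6 h to +6 h (horizontal axes) of each gene in wild type (blue) and EcR-RNAi (orange), with 95% intervals from limma. Filled points passed an adjusted p under 0.05, and lmd has its own axis. kirre stood at 2.12 in wild type and 1.25 in EcR-RNAi, and the points of Him nearly coincided at 1.47 and 1.48.

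Taking the interaction over the 10 genes, 2 were called, kirre at -0.86 ± 0.20 (limma adjusted p = 0.00942) and blow at -0.68 ± 0.18 (limma adjusted p = 0.0150), both with a smaller increase in EcR-RNAi. Among all genes 15.4% were called lower and 11.6% higher in the interaction, so a share of 2 in 10 is near the background. The kirre call ended without replicate 2 of EcR-RNAi at +6 h (-0.80, limma adjusted p = 0.0515). The blow call was less firm. It ended without replicate 1 (-0.65, limma adjusted p = 0.0663) or 2 (-0.71, limma adjusted p = 0.0514) of EcR-RNAi at +6 h, without replicate 2 of wild type at -6 h (-0.60, limma adjusted p = 0.0629) or at +6 h (-0.52, limma adjusted p = 0.0586), with quantile normalization (-0.43, limma adjusted p = 0.113) and without trend and robust settings (limma adjusted p = 0.0532). twi, at -0.37 ± 0.19 (limma adjusted p = 0.171), was called in 1 alternative, without replicate 1 of wild type at -6 h (-0.56, limma adjusted p = 0.0424).

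At -6 h, 4 of the 10 genes were higher in EcR-RNAi than in wild type and 0 were lower, where 7.51% of all genes were higher and 3.36% lower. The median log2 difference of the 10 genes was 0.40. lmd, with 1 read in each larval library, gives no direction here. The differences of htl and zfh1 (0.13 and 0.24, not called) fell below 0 without replicate 1 of the EcR-RNAi larval group, as did that of htl without replicate 1 of the wild-type larval group. The called genes were blow (0.59 ± 0.13, limma adjusted p = 0.0115), Mef2 (0.57 ± 0.15, limma adjusted p = 0.0295), stumps (0.42 ± 0.10, limma adjusted p = 0.0225) and twi (0.48 ± 0.13, limma adjusted p = 0.0435). kirre, at 0.48 ± 0.14 (limma adjusted p = 0.0598), was called without replicate 2 of EcR-RNAi at -6 h (0.68, limma adjusted p = 0.0108). These calls had little margin. Without replicate 2 of the wild-type larval group, 0 of the 10 were called, with twi at 0.29 (limma adjusted p = 0.322), Mef2 at 0.42 (0.238), blow at 0.50 (0.108) and stumps at 0.40 (0.118). Without replicate 2 of the EcR-RNAi larval group, or without either prepupal EcR-RNAi library, 2 were called. twi then reached limma adjusted p of 0.0857 to 0.170 and Mef2 of 0.0602 to 0.0979. stumps lost its call without any 1 of the 4 larval libraries (limma adjusted p = 0.0518 to 0.118). Without trend and robust settings 0 of the 10 were called (limma adjusted p = 0.0554 for blow).

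Fat body transcripts also differed between the genotypes at -6 h. Of 7 tested fat body marker genes 5 were higher in EcR-RNAi, where 7.51% of all genes were. The summed level of the list was 237 to 635 normalized counts in wild type and 1994 to 4883 in EcR-RNAi, with Adh at 0. The call of Lsp1beta (3.15 ± 0.66, limma adjusted p = 0.0489) ended under 10 of the 19 alternatives. Of 9 tested hemocyte genes, 2 were higher in EcR-RNAi and 7 were not called, where 7.51% of all genes were higher. The 2 were proPO45 (4.38 ± 0.63, limma adjusted p = 0.00122) and proPO-A1 (4.95 ± 0.56, limma adjusted p = 2.5e-04). The proPO45 call ended with only the libraries of the comparison (limma adjusted p = 0.0657). Both genes passed the filter on low values through larval EcR-RNAi, so these 2 calls are a description only. There proPO-A1 had a mean of 147 against 0.524 to 5.54 in the other groups. proPO45 had a mean of 271 there, against 0.524 to 13.5. The defining hemocyte gene Hml was at 52.5 to 110 normalized counts in wild type and at 104 to 129 in EcR-RNAi. The part of these cells in the member levels was not tested.

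At +6 h, 3 of the 10 were higher in EcR-RNAi and 0 lower, with backgrounds of 21.3% and 21.6%, so this share too is near that of all genes. stumps was higher by 0.73 ± 0.10 (limma adjusted p = 1.8e-04) and was called under all 19 alternatives. Mef2 (0.46 ± 0.15, limma adjusted p = 0.0273) and Him (0.40 ± 0.14, limma adjusted p = 0.0378) had less margin. Mef2 lost its call without replicate 2 of wild type at +6 h (0.26, limma adjusted p = 0.232) and without replicate 1 (limma adjusted p = 0.0666) or 2 (limma adjusted p = 0.171) of EcR-RNAi at +6 h. Him lost its call without any 1 of the 4 libraries at +6 h (limma adjusted p = 0.0954 to 0.152), with the replicate block (limma adjusted p = 0.0507), with quantile normalization (limma adjusted p = 0.0817) and with DESeq2 (adjusted p = 0.149). sns, at 0.23 ± 0.12 (limma adjusted p = 0.15), was called without replicate 1 of wild type at +6 h (0.40, limma adjusted p = 0.0329). kirre, at -0.38 ± 0.14, lay just above the threshold (limma adjusted p = 0.0514). It was called lower in EcR-RNAi with edgeR (adjusted p = 0.0466) and, with limma, without replicate 1 (adjusted p = 0.0206) or 2 (adjusted p = 0.0196) of EcR-RNAi at -6 h.

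Markers of other cell types differed between the genotypes at +6 h too, where 21.3% of all genes were higher in EcR-RNAi and 21.6% lower. Of 7 fat body genes 3 were higher in EcR-RNAi, among them Lsp1gamma (2.65 ± 0.38, limma adjusted p = 6.7e-04) and Lsp1beta (2.99 ± 0.66, limma adjusted p = 0.0191). The Lsp1beta call ended without any 1 of the 4 prepupal libraries (limma adjusted p up to 0.105). The list summed to 318 to 450 normalized counts in wild type and 850 to 979 in EcR-RNAi. Of 9 hemocyte genes 3 were higher and 3 lower. He had 3 reads in wild type and 34 in EcR-RNAi, a depth-scaled ratio of 10.1 (95% counting interval 3.17 to 51.3), and Hml was lower (-1.24 ± 0.37, limma adjusted p = 0.0192). The Hml call ended without replicate 2 of prepupal wild type, without either prepupal EcR-RNAi library and with edgeR (adjusted p = 0.119). The part of these cells in the member levels was not tested.

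**Figure D3:**
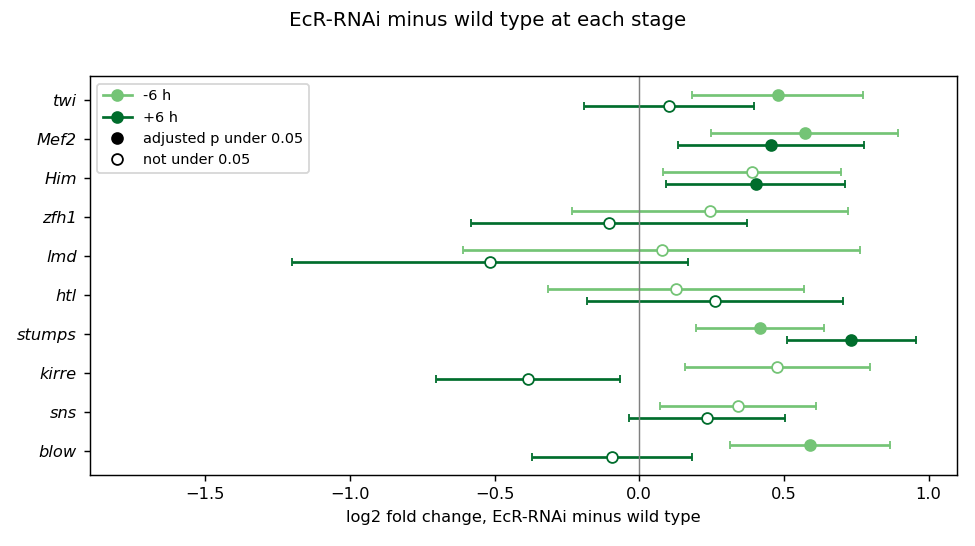
Log2 fold change of EcR-RNAi over wild type (horizontal axis) for each gene at -6 h (light green) and +6 h (dark green), with 95% intervals from limma. Filled points passed an adjusted p under 0.05. stumps at +6 h lies farthest right at 0.73, and the lmd point at -6 h rests on 1 read per library.

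In the authors' deposited table, which holds their own comparisons, 8 of the 10 genes passed an adjusted p under 0.05 between the stages in wild type, 5 in EcR-RNAi, 2 between genotypes at -6 h and 2 at +6 h. In wild type 7 of the 8 rose, where 22.4% of all genes with an adjusted p in the authors' deposited table rose and 16.8% fell. All 5 in EcR-RNAi rose, against 9.64% of all genes that rose and 1.79% that fell in the authors' deposited table. Both pairs of calls between genotypes were higher in EcR-RNAi, where the authors' deposited table has 6.52% of all genes higher and 2.02% lower at -6 h, and 13.1% higher and 15.9% lower at +6 h. In that table sns had an adjusted p of 0.0534 for the wild-type stage comparison. For the genotypes at -6 h the authors' deposited table gives adjusted p values of 0.00390 for blow and 0.0140 for Mef2, and of 0.0689 for twi and 0.0957 for stumps. At +6 h the authors' deposited table calls stumps (adjusted p = 1.2e-04) and Mef2 (adjusted p = 0.0323).

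Each of the other members was also set against twi in the same library. These ratios do not depend on the scaling between libraries, were chosen after the values above were seen, and were not tested. Mef2 per twi was 1.77 and 1.87 in wild type at -6 h, 2.07 and 1.82 at +6 h, 2.00 and 1.89 in larval EcR-RNAi and 2.37 and 2.59 in its prepupae. It was thus close to level in 3 groups and highest in EcR-RNAi at +6 h. Him per twi was 0.123 to 0.144 over the 4 libraries at -6 h and 0.167 to 0.228 over the 4 at +6 h, without overlap. lmd per twi at +6 h was 0.294 and 0.307 in wild type and 0.180 and 0.211 in EcR-RNAi.

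Ratios of the FGF genes and sns to twi were lower at +6 h. twi itself rose with stage (1.03 in wild type and 0.66 in EcR-RNAi), and any gene that rose less has a lower ratio. In wild type the stage change was -0.04 for htl and 0.40 for sns. For htl and sns a lower ratio therefore does not show a fall. stumps per twi went from 0.813 and 1.02 to 0.302 and 0.322 in wild type, and from 0.946 and 0.810 to 0.490 and 0.476 in EcR-RNAi. htl per twi was 0.192 to 0.392 at -6 h and 0.131 to 0.166 at +6 h over both genotypes. sns per twi was 0.757 to 0.918 at -6 h and 0.516 to 0.596 at +6 h. kirre gained on it, from 0.271 and 0.403 to 0.620 and 0.793 in wild type and from 0.398 and 0.275 to 0.527 and 0.474 in EcR-RNAi. zfh1 per twi was lower at +6 h in wild type (1.71 and 1.74, then 1.37 and 1.32) and overlapped between stages in EcR-RNAi (1.87 and 1.16, then 1.28 and 1.06). blow per twi was lower at +6 h in EcR-RNAi (1.94 and 1.92, then 1.41 and 1.45) and overlapped in wild type (1.67 and 1.92, then 1.37 and 1.97). For Him, stumps, htl, sns, kirre and lmd the larval and prepupal libraries did not overlap. How many of all genes separate by stage on this ratio was not computed. Since twi itself rose, the separation is not shown to be particular to these members.

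**Figure D4:**
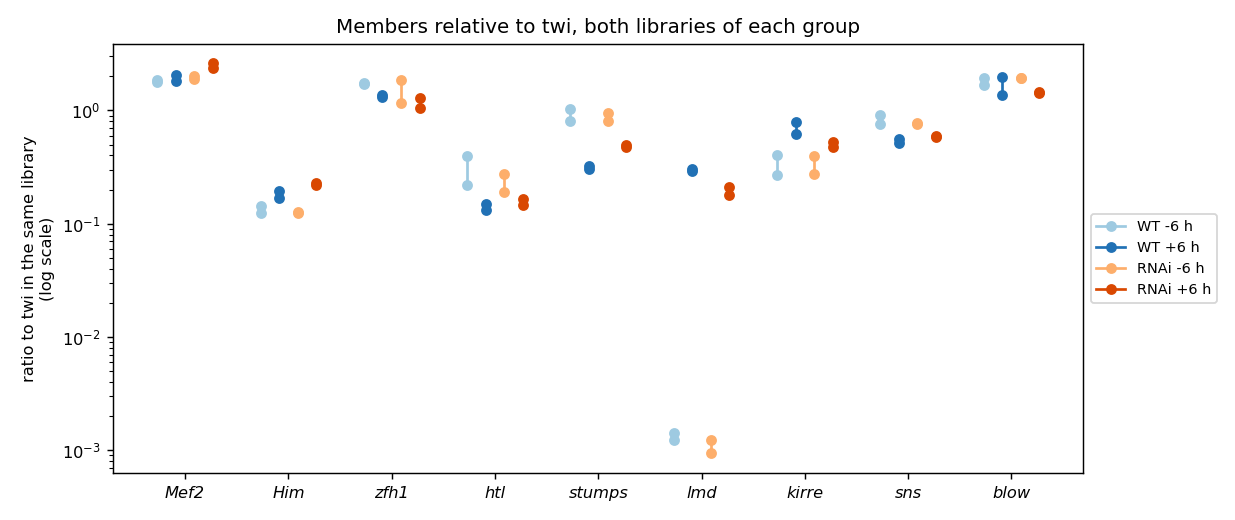
Normalized count of each gene divided by that of twi in the same library (vertical axis, log scale), with both libraries of each group joined by a line. stumps per twi lies at 0.810 to 1.02 in the 4 libraries at -6 h and at 0.302 to 0.490 in the 4 at +6 h.

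Some members also varied together between the libraries of a group. In wild type, replicate 1 was higher than replicate 2 for 8 of the 10 genes at -6 h and for 7 of 10 at +6 h, where 51.3% and 48.6% of all genes tested were. The 8 at -6 h include lmd, whose 1 read in each library leaves only the depth factor to set its direction. twi, Mef2, zfh1, stumps and sns did so at both stages. In EcR-RNAi 5 of 10 were higher in replicate 1 at each stage. Across the 8 libraries the closest pair of members was twi and Mef2, with a Pearson r of 0.975 on log2 values, and lmd and stumps were farthest apart at -0.54. These coefficients describe 8 libraries in 4 groups and share the stage difference.

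Among genes outside the 10, those with the most similar profile over the 8 libraries were found by Pearson r of log2 values, as a description. For lmd they were E(spl)m6-BFM, a gene of the Bearded family known from muscle precursors (r = 0.996), and CG3884 (r = 0.996). For Mef2 they were the actin gene Act57B (r = 0.989), whose reads may be shared with the close copy Act87E, and Gfat1 (r = 0.983). For twi they were CG34382 (r = 0.996) and CG6356 (r = 0.992), and for Him CG5973 (r = 0.993) and Ef1alpha100E (r = 0.989). For kirre they were futsch (r = 0.995) and CG4613 (r = 0.993), for sns CG9850 (r = 0.984) and Gfat1 (r = 0.983), and for blow CG1319 (r = 0.987). For stumps they were CG8547 (r = 0.996) and CG5746 (r = 0.994), and for zfh1 jvl (r = 0.976) and W (r = 0.975). htl had the least similar neighbours, CG12582 (r = 0.931) and ste14 (r = 0.884).

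The other genes of myoblast fusion were set beside the shares of all genes. Of 18 tested, 9 rose and 0 fell in wild type, where 29.1% of all genes rose and 26.7% fell. In EcR-RNAi 2 rose and 0 fell, near the 12.1% and 3.88% of all genes. The medians were 0.30 and 0.22. sing encodes a membrane protein of fusing myoblasts. It had 1 read over both wild-type libraries at -6 h and 46.2 and 38.8 normalized counts at +6 h, a ratio of 109 (95% counting interval 18.9 to 4353). In EcR-RNAi it went from 2.92 and 1.64 to 44.3 and 63.1 normalized counts (4.07 ± 0.51, limma adjusted p = 2.7e-04). sing was thus near 0 at -6 h and present at +6 h in both genotypes, as lmd was.

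hbs encodes Hibris, a relative of Sns. It rose in wild type from 883 and 758 to 1906 and 1557 normalized counts (1.07 ± 0.13, limma adjusted p = 3.1e-05) and in EcR-RNAi from 625 and 571 to 1272 and 1142 (1.01 ± 0.13, limma adjusted p = 3.0e-04). rst encodes Roughest, which acts beside Kirre. It rose in wild type from 727 and 786 to 1742 and 1585 (1.14 ± 0.11, limma adjusted p = 5.1e-06), and was at 991 and 892 and then 1190 and 1097 in EcR-RNAi (0.28 ± 0.11, limma adjusted p = 0.109). siz, a guanine nucleotide exchange factor gene (1.05 ± 0.12, limma adjusted p = 1.95e-05), and the GTPase gene Rac2 (0.90 ± 0.12, limma adjusted p = 9.2e-05) rose in wild type as well. At +6 h, 7 of the 18 were lower in EcR-RNAi and 1 was higher, where 21.6% and 21.3% of all genes were.

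**Figure D5:**
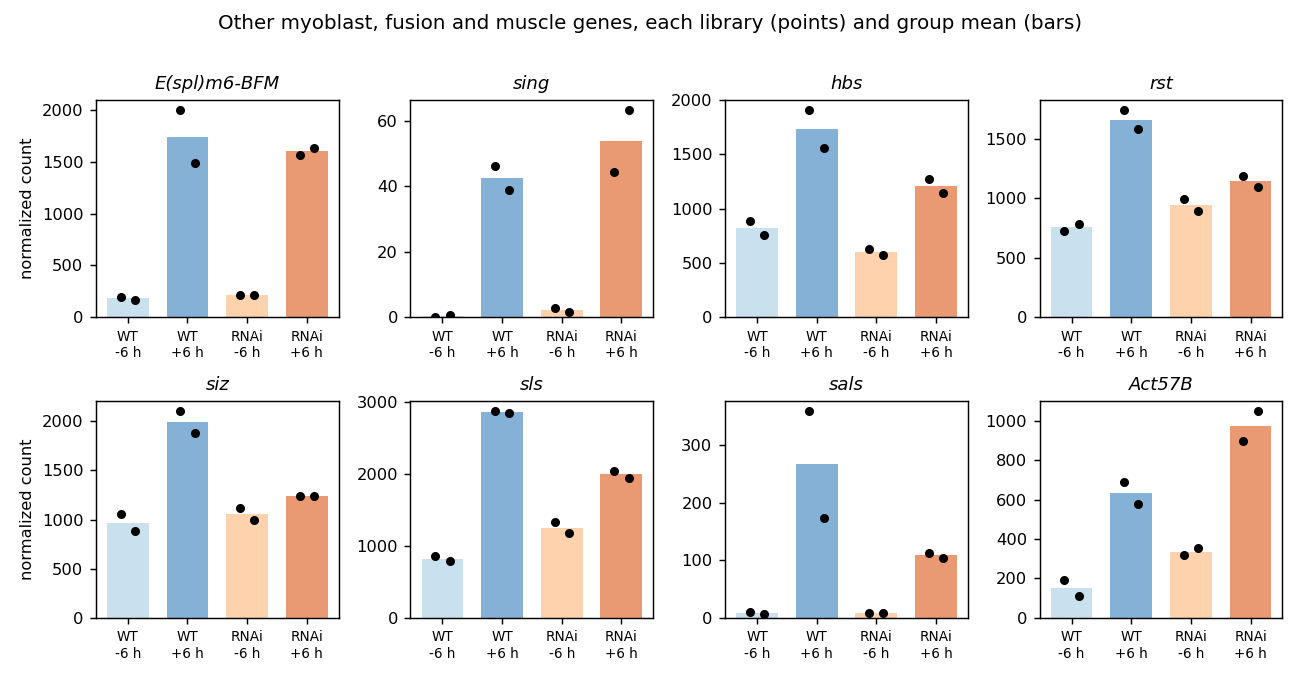
Normalized counts (vertical axes, linear, each from 0) of other myoblast, fusion and muscle genes in wild type (WT) and EcR-RNAi (RNAi). Points are libraries and bars are means of 2. E(spl)m6-BFM and sing were high at +6 h in both genotypes, and siz and rst were highest in wild type at +6 h.

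Of 20 listed muscle fate and myoblast identity factors, 14 were tested. Of these, 4 rose and 2 fell in wild type, and 1 rose and 0 fell in EcR-RNAi. Over all genes 29.1% rose and 26.7% fell in wild type, and 12.1% and 3.88% in EcR-RNAi. The share that rose in wild type was near that background. E(spl)m6-BFM went from 199 and 168 to 2000 and 1493 normalized counts in wild type (3.23 ± 0.14, limma adjusted p = 1.1e-08). In EcR-RNAi it went from 218 and 218 to 1569 and 1637 (2.87 ± 0.14, limma adjusted p = 4.9e-07). how, an RNA-binding protein gene of muscle and tendon cells, rose in wild type (1.32 ± 0.23, limma adjusted p = 0.00123). sna, the mesodermal zinc finger gene, rose from 1.94 and 1.92 to 23.9 and 18.9 normalized counts (2.92 ± 0.49, limma adjusted p = 3.8e-04), near the limit of detection. It passed the filter on low values through prepupal wild type, with a mean of 21.4 against 1.93 to 13.4 in the other groups. Its call is therefore a description only. bap had no read in any library, and tin, slou and Six4 had none in at least 1 group.

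Some striated muscle structural genes moved with the stage as well. Of 28 listed, 16 passed the filter on low values. Of these, 13 rose and 0 fell in wild type (median 1.33), and 4 rose and 0 fell in EcR-RNAi (median 0.50). Over all genes 29.1% rose and 26.7% fell in wild type, and 12.1% and 3.88% in EcR-RNAi. The filter used the mean over all 8 libraries, so a gene high at +6 h alone could pass through that level. These counts therefore do not show how the list as a whole moved. The summed level of all 28 was lower at +6 h in wild type (41122 and 40230 normalized counts, then 36620 and 34835). In EcR-RNAi the sums overlapped between stages (44019 and 25742, then 42203 and 33607). At +6 h, 9 of the 16 were lower in EcR-RNAi and 1 was higher, where 21.6% and 21.3% of all genes were. sls, the gene for the giant sarcomere protein Sallimus, went from 853 and 793 to 2877 and 2843 normalized counts in wild type (1.80 ± 0.11, limma adjusted p = 1.2e-07) and from 1334 and 1172 to 2045 and 1941 in EcR-RNAi (0.67 ± 0.11, limma adjusted p = 0.00129). sals, which acts in sarcomere length control, rose by 4.82 ± 0.35 in wild type (limma adjusted p = 5.8e-07) and by 3.54 ± 0.35 in EcR-RNAi (limma adjusted p = 4.7e-05). The projectin gene bt (3.01 ± 0.33, limma adjusted p = 1.5e-05) and Act79B (4.56 ± 0.82, limma adjusted p = 6.55e-04) rose in wild type. Mhc, the muscle myosin heavy chain gene, was at 0.968 to 22.4 normalized counts, and TpnC47D was at 0 throughout.

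Signalling pathway lists were counted in the same way. Over all genes 29.1% rose and 26.7% fell in wild type, and 12.1% rose and 3.88% fell in EcR-RNAi. Of 16 tested genes of FGF and Ras-MAPK signalling, 3 rose and 2 fell in wild type and 1 rose in EcR-RNAi, with a median of -0.03 in both. The Heartless ligand genes pyr and ths were at 256 to 407 and at 359 to 811 normalized counts over the 8 libraries. bnl, the ligand gene of the other FGF receptor, rose in wild type from 108 and 108 to 762 and 809 (2.85 ± 0.18, limma adjusted p = 2.2e-07), and btl, its receptor gene, fell (-1.22 ± 0.23, limma adjusted p = 8.9e-04). aop, which encodes a repressor of the pathway, rose (0.75 ± 0.15, limma adjusted p = 0.00156), a call that ended with quantile normalization (0.24, limma adjusted p = 0.129). Of 10 core Notch pathway genes, 4 rose and 2 fell in wild type and 1 rose and 1 fell in EcR-RNAi. The ligand gene Ser (-0.92 ± 0.10, limma adjusted p = 1.0e-05) and Su(H), the gene of the pathway's DNA-binding factor (-0.80 ± 0.12, limma adjusted p = 1.5e-04), fell in wild type, and fng rose (0.74 ± 0.11, limma adjusted p = 1.6e-04), though not with quantile normalization (0.20, limma adjusted p = 0.134).

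Markers of other cell types were described from the same fit, where 29.1% of all genes rose and 26.7% fell in wild type. In EcR-RNAi these shares were 12.1% and 3.88%. Of 9 tested hemocyte genes 3 rose and 4 fell in wild type and 3 rose and 3 fell in EcR-RNAi. Hml fell in wild type (-2.35 ± 0.37, limma adjusted p = 2.6e-04) while srp rose (2.85 ± 0.38, limma adjusted p = 8.8e-04). He (ratio of +6 h over -6 h 0.0978, 95% counting interval 0.0195 to 0.303) and proPO45 (0.0515, 95% counting interval 0.00126 to 0.309) had 3 reads and 1 read at +6 h. Of 10 tracheal genes 4 rose and 2 fell. Those that rose were led by serp (2.08 ± 0.40, limma adjusted p = 0.00599), uif (1.93 ± 0.12, limma adjusted p = 1.6e-07) and verm (1.88 ± 0.41, limma adjusted p = 0.0109). The 2 that fell were pio (-1.67 ± 0.10, limma adjusted p = 1.5e-07) and btl (-1.22 ± 0.23, limma adjusted p = 8.9e-04), so the list did not move in 1 direction. The serp call ended with only the libraries of the comparison (limma adjusted p = 0.0744), and its prepupal wild-type libraries were at 19081 and 8778 normalized counts. The verm call ended with only those libraries (limma adjusted p = 0.113) and without either wild-type larval library (limma adjusted p = 0.0519 and 0.0632), and trh was at 598 to 802 normalized counts throughout.

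Of 7 fat body genes 0 rose and 1 fell in wild type, Lsp1gamma (-1.05 ± 0.38, limma adjusted p = 0.0442). That call ended without replicate 1 of wild type at -6 h (-0.51, limma adjusted p = 0.244) or at +6 h (-0.66, limma adjusted p = 0.258), and without either prepupal EcR-RNAi library (limma adjusted p = 0.0694 and 0.0699). Of 6 neuron and glia genes 3 rose and 0 fell, where 29.1% of all genes rose. The 3 were futsch (4.24 ± 0.13, limma adjusted p = 4.8e-10), brp (1.55 ± 0.45, limma adjusted p = 0.0126) and moody (1.30 ± 0.26, limma adjusted p = 0.00150). The brp call ended without replicate 1 of wild type at -6 h (1.34) or without either prepupal wild-type library (1.58 and 1.53). The neuronal gene elav was not called (-0.27 ± 0.30, limma adjusted p = 0.482). Its mean was 774 in larval and 643 in prepupal wild type. The defining glial gene repo was at 0.64 to 14.7 normalized counts. Of 12 wing epithelium genes 1 rose, bbg (2.97 ± 0.12, limma adjusted p = 5.55e-09), and 3 fell, among them ap (-0.91 ± 0.12, limma adjusted p = 8.5e-05) and tsh (-0.45 ± 0.11, limma adjusted p = 0.00567). The part of these cell types in the member levels was not tested.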

How the data were processed

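RNA was measured in 8 wing libraries in 4 groups of 2, grouped and numbered by sample title. Whether replicates are separate animals is not stated, and p-values therefore cover the spread among these libraries alone. The authors deposited normalized counts, a signal made by dividing the count of reads per gene by a factor per library. Dividing by the worth of 1 read gave whole reads for 100% of values, within 0.1 read. The authors' deposited table also holds log2 fold changes, p-values and a test statistic, a score not used here. The submitters' processing notes name DESeq2 1.14.1, Subread 1.24.2, SAMtools 1.3.1, STAR 2.5.2b and, as build, dm3. The treatment of strand was not given in the sources used here. Members that overlap other genes are therefore uncertain, namely kirre (23 genes in its span), twi (4), and stumps, zfh1, sns and blow (1 each), by the RefSeq table of Release 6.

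The 7775 of 15240 genes whose mean reached 10 normalized counts were fitted with limma 3.58.1 (trend and robust, R 4.3.3) on log2(normalized count + 1), with 4 group means over all 8 libraries and Benjamini-Hochberg adjustment over all genes. The pseudocount understates changes of genes with low counts. Genes near 0 at -6 h, such as lmd and sing, passed the filter through their levels at +6 h. The fit was also run on simulated counts drawn with the same spread setting for every gene. That run does not show how firm calls from 2 libraries per group are. edgeR 4.0.16 and DESeq2 1.42.0 were run on the recovered reads as alternatives. Members and 10 context lists were chosen with earlier results of these data known. From each list the 3 called genes with the largest wild-type stage change were named, and up to 2 more called in the interaction. Likeness names the 2 genes with the highest r per member, of which 1 for blow is not reported here. EcR, nub, repo, w, Vps13, pyr, ths, Mhc, trh and other single markers were named outside this rule. Of the listed symbols nSyb had no match. The 4 CUT&RUN libraries and their peak lists were not analysed here, since peaks are in dm3 and the gene table is Release 6. Counting intervals cover counting error only.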

Additional observations from a re-analysis of the deposited data

Results flagged for a closer look

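A test of the interaction, the EcR-RNAi stage change minus the wild-type one, marked the following genes among those named (log2, limma adjusted p under 0.05). Of the 10 members these were kirre at -0.86 ± 0.20 and blow at -0.68 ± 0.18.

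Among the other fusion genes the interaction was -0.85 ± 0.15 for rst, -0.82 ± 0.17 for siz and -0.68 ± 0.18 for Rac2. bnl stood at -1.77 ± 0.26. Of the identity factors, sna was at -2.3 ± 0.69 and eya at -0.93 ± 0.21, and ap was at 0.63 ± 0.18. Of the Notch genes, Ser was at 0.5 ± 0.14, Su(H) at 0.6 ± 0.17 and fng at -0.7 ± 0.16.

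Of the structural muscle genes, sls was at -1.13 ± 0.15 and Zasp52 at -1.35 ± 0.21. Among markers of other cell types, Hml was at -1.84 ± 0.53, proPO-A1 at -2.77 ± 0.80, uif at -1.59 ± 0.17, pio at 1.22 ± 0.14, Fbp2 at -3.19 ± 0.87, futsch at -1.89 ± 0.18 and bbg at -1.79 ± 0.17. The calls of kirre, blow, Rac2, sna, ap, Ser, Su(H), Hml, proPO-A1 and Fbp2 ended when 1 library was left out, and that of fng with quantile normalization (-0.37, limma adjusted p = 0.101). proPO-A1 had 1 read in prepupal wild type, so its value depends on the pseudocount. sna passed the filter on low values through prepupal wild type, and proPO-A1 through larval EcR-RNAi. The genes were picked partly for being called in the interaction, so their number says nothing about their lists.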

How the results depend on the processing

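Under the 19 alternatives (18 for the interaction) no value of a member that was called in either fit changed sign. Of the members' values under an alternative, 874 kept their side of the threshold, 52 lost a call and 14 gained one, and the cause was not tested. In the wild-type stage change 7 to 9 members were called, and in EcR-RNAi 4 to 6. At -6 h the 4 calls between genotypes became 2 with DESeq2 and with only the libraries of the comparison, and 0 without trend and robust settings, and leaving out 1 library gave 0 to 4. At +6 h the 3 calls became 5 with edgeR and with only the libraries of the comparison, and leaving out 1 library gave 1 to 4. In the interaction the 2 calls became 1 with quantile normalization and without trend and robust settings, and leaving out 1 library gave 0 to 3. Upper-quartile scaling put the median of all genes at -0.17 and quantile normalization at -0.23 in the wild-type stage change, which lowered all members there except htl with quantile normalization. With the replicate block 1 call of a member was lost, Him at +6 h. Same-numbered libraries did not deviate together (r of -0.15 to 0.13), so the number was not taken as a pairing. The peak alternatives were not run. Depth limits lmd at -6 h, with 1 read per library, and each group has 2 libraries.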
